A study of Mus musculus with 68 samples.

Results

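The genes described here are 35 mouse genes of endoplasmic reticulum (ER) stress and of the integrated stress response, taken as a fixed list of symbols and found in a table of 27179 genes; all 35 were matched. The list has 11 genes of the ATF4/CHOP arm (Atf4, Ddit3, Atf3, Trib3, Ppp1r15a, Chac1, Asns, Psat1, Phgdh, Shmt2 and Mthfd2). The other 24 genes are the stress sensors, chaperones, folding enzymes and degradation factors grouped as the IRE1/ATF6 chaperone arm. RNA sequencing counts came from mesenchymal stromal cells (MSCs), the adherent stromal fraction grown out of mouse long bones and cultured in growth medium. Het 12M cultures (6 samples) came from Ezh2fl/+:Prxx-1-Cre heterozygous mice aged 12 months, and WT 12M cultures (4 samples) from Ezh2+/+:Prrx-1-Cre mice of the same age. Het 3M (3 samples) and WT 3M (4 samples) had the same genotypes at 3 months. All groups therefore carried the Cre transgene, which is driven by a Prrx1 promoter active in limb bud mesenchyme, and the Het mice had 1 floxed Ezh2 allele, the gene of the H3K27 methyltransferase of Polycomb complex 2. The labels do not say whether a sample is the culture of a single mouse, so the p-values measure the spread between these samples.

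When unfolded protein accumulates in the ER, the membrane sensors PERK (Eif2ak3), IRE1 (Ern1) and ATF6 are activated. IRE1 splices Xbp1 mRNA, and spliced XBP1 and cleaved ATF6 induce chaperones, folding enzymes and ER-associated degradation. PERK, like other kinases that sense amino acid shortage, haem shortage or viral RNA, phosphorylates eIF2alpha, which lowers translation in general but favours translation of ATF4, and ATF4 induces CHOP (Ddit3), feedback genes and amino acid synthesis. Stromal cells that make collagen run a large secretory pathway, and ATF4 is known for its part in osteoblast amino acid supply. Splicing of Xbp1 and phosphorylation of PERK and eIF2alpha cannot be read from gene counts.

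Each library held 13687876 to 28597221 counts in Het 12M, 16856720 to 23575978 in WT 12M, 17326547 to 20001884 in Het 3M and 19875204 to 24212728 in WT 3M. Values are CPM, counts scaled to library size with TMM factors, and differences are edgeR log2 fold changes with their standard error (SE). Ezh2, the targeted gene, averaged 17.8 ± 5.52 CPM in Het 12M and 19.8 ± 12.3 CPM in WT 12M (SD, n = 6 and 4), and 11.1 ± 2.29 CPM in Het 3M and 12.6 ± 2.33 CPM in WT 3M (n = 3 and 4). Its log2 difference was -0.16 ± 0.356 (SE) at 12 months and -0.19 ± 0.425 at 3 months (edgeR adjusted p = 0.924 and 1), and counts over the whole gene cannot tell a deleted allele's remaining transcript from an intact one. All 10 mesenchymal stromal markers were detected in every library. Their sum was 6136 CPM in Het 12M S15 and 10060 CPM in WT 3M S12, and 17350 to 33000 CPM in the others. Het 12M S9 had 39350 CPM summed over 10 macrophage and myeloid markers, against at most 2611 CPM in WT 12M, 1293 CPM in Het 3M and 1722 CPM in WT 3M. WT 12M S6 had 1205 CPM summed over 8 Schwann and neural crest markers, against at most 97.1 CPM in Het 12M, 114 CPM in Het 3M and 108 CPM in WT 3M. In WT 12M, sex-linked transcripts did not match the labelled sex: S2 and S13, labelled male, had Xist at 363 and 295 CPM and Y-linked genes at a mean of 0 and 0.131 CPM, and S6, labelled female, had 0.192 and 28.4 CPM. WT 12M S7, labelled female, had both signals, with Xist at 81.6 CPM and a Y-linked mean of 34.97 CPM. The other 13 libraries matched their labels. Of these, Het 12M S17, Het 3M S8 and S10, and WT 3M S5 and S12 were labelled male, and the rest female.

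Promoter windows of 32 of the 35 genes (RefSeq, GRCm38.p6, 250 bases before to 50 after the start, 300 bases) were searched on both strands for the sequences through which the arms are known to be induced. The ER stress element, read as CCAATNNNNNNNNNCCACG and bound by ATF6 with NF-Y, was in 9 member promoters, all of the chaperone arm (Calr, Canx, Creld2, Derl3, Dnajc3, Hsp90b1, Hspa5, Pdia6 and Syvn1), and in 0.119% of 32851 promoter windows. A C/EBP-ATF element, read as TGATGNAA and bound by ATF4 with C/EBP partners, was in Asns, Atf3, Chac1, Trib3 and Herpud1, and in 3.97% of windows. ER stress element II, read as ATTGG, any base, then CCACG, was in Dnajb11 and Herpud1 and in 0.0365% of windows, and the cyclic AMP response element TGACGTCA was in Ppp1r15a and in 1.79%. The unfolded protein response element TGACGTGG was in none of the 32 and in 0.676% of windows. A match is a description of these letters and not a binding site. The 250 bases before the start are shown for 5 genes, with matches in capitals: Chac1 and Asns for the ATF4 element, Herpud1 because it holds both kinds (a C/EBP-ATF match, then ER stress element II), Hspa5 for the ER stress element, and Fkbp11 because it has the smallest p of all members in the wild-type age comparison below and its 2 windows hold no match. The windows are, for Chac1, chr2:119350992-119351241 (plus strand), for Asns, chr6:7693210-7693459 (minus strand), for Herpud1, chr8:94386179-94386428 (plus strand), for Hspa5, chr2:34771840-34772089 (plus strand) and, for Fkbp11, chr15:98728199-98728448 (minus strand).
Chac1: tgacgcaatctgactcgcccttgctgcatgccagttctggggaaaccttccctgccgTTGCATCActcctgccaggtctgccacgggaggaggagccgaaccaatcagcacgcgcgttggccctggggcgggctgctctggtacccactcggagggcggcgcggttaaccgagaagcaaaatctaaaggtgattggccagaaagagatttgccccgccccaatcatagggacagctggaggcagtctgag
Asns: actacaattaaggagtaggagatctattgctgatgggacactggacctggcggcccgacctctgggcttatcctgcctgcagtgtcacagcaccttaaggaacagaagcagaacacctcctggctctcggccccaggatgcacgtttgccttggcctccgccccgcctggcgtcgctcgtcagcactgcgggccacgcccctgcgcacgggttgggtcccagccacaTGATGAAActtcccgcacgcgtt
Herpud1: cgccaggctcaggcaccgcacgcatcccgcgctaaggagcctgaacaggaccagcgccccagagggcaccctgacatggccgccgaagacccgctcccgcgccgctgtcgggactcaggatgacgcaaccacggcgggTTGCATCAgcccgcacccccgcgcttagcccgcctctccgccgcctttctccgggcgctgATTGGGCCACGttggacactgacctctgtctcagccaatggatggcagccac
Hspa5: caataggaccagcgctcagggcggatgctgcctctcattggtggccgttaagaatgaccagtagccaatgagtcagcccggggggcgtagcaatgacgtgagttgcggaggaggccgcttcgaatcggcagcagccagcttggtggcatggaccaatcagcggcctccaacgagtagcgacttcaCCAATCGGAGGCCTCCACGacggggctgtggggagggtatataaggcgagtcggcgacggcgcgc
Fkbp11: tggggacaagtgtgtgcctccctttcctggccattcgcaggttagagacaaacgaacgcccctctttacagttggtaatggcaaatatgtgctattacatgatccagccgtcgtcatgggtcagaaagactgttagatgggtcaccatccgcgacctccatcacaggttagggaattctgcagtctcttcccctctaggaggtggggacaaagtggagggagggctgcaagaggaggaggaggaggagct

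Per kilobase of exon, the folding enzymes and chaperones were the most abundant members. Pdia3, a disulphide isomerase that works on glycoproteins, averaged 418 CPM per kb over the 17 libraries. Hsp90b1 (GRP94), Calr and Hspa5 (BiP) averaged 405, 336 and 314 CPM per kb. Atf4 led the stress factors at 53.8 CPM per kb, Asns (asparagine synthetase) the amino acid genes at 43.2 CPM per kb, Xbp1 the sensors at 43.5 CPM per kb and Herpud1, a degradation scaffold, its group at 61.2 CPM per kb. The lowest levels were those of Ern1, at 1.89 CPM per kb, and Derl3, a derlin of secretory cells, at 0.278 CPM per kb. Spread over libraries differed by role: the median member of the stress factor group had a highest library 11.5 times its lowest, and the median chaperone 2.82 times.

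**Figure D1:**
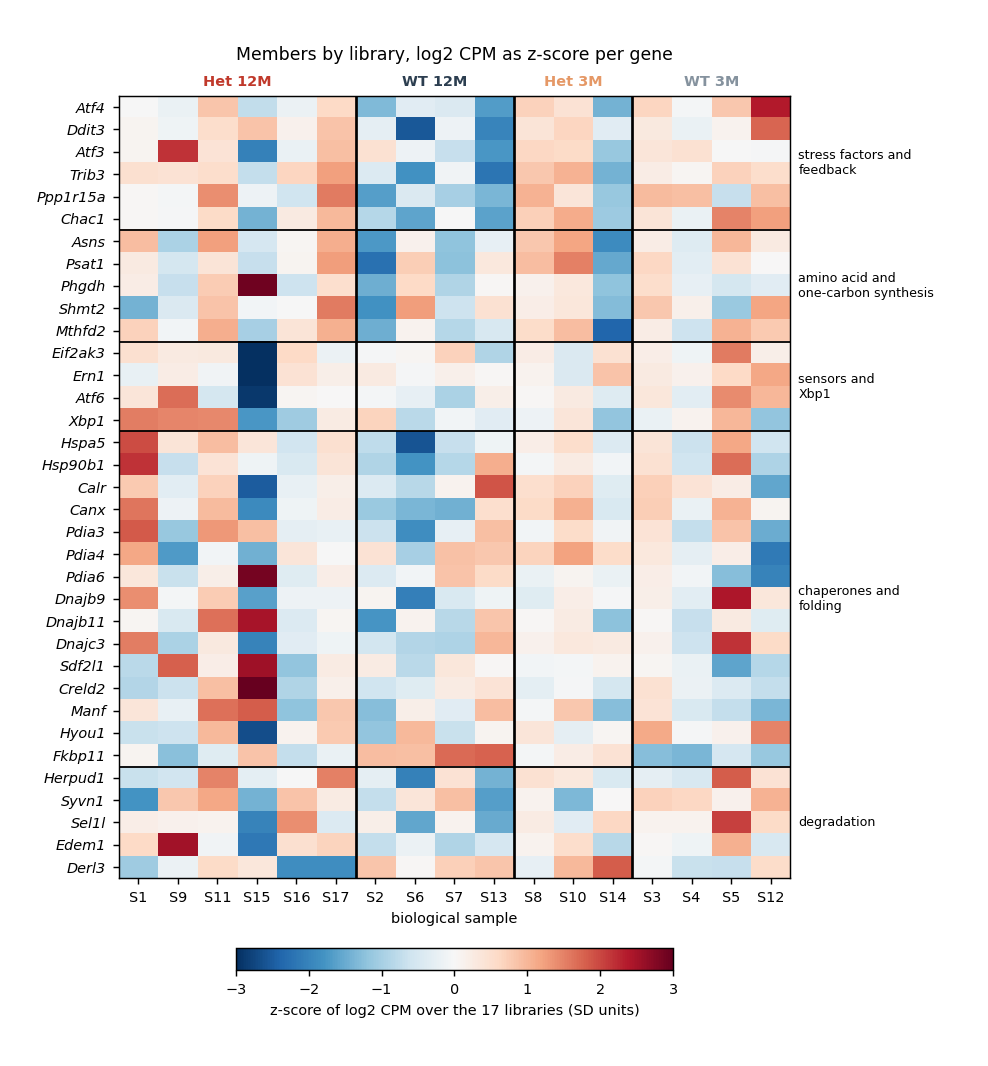
Heat map of the 35 genes (rows, by role) in the 17 libraries (columns, by group), as z-scores of log2 CPM over the libraries in SD units, with colours limited to -3 to 3. The stress factor rows are mostly blue in WT 12M, the amino acid rows are blue in WT 12M S2 and S7, both sets are blue in Het 3M S14, Fkbp11 is red in all 4 WT 12M libraries, and Het 12M S15 stands apart in the sensor rows and in Phgdh, Pdia6, Sdf2l1 and Creld2.

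At 12 months, the question is how heterozygous cultures differ from wild-type ones. All 11 genes of the ATF4/CHOP arm were fitted higher in Het 12M than in WT 12M, with a median log2 difference of 1.11 beside 0.052 for all 14897 genes tested, and 55.7% of all genes were fitted higher and 44.3% lower. The chaperone arm had 17 genes fitted higher and 7 lower, with a median of 0.16, and 0.10 without WT 12M S6. In edgeR no member passed after adjustment over all genes, and 0% of genes were called. DESeq2 and voom with quality weights called 106 and 171 of the 14897 genes, each with 1 member among them, Fkbp11. At an unadjusted p under 0.05, 5 members were higher (3.44% of all genes) and 1 was lower (4.93% of all genes) in edgeR. The 5 became 3 without Het 12M S11 and 9 without Het 12M S15, and the 1 lower became 2 when either was left out. Without WT 12M S6 and the Het 12M libraries S9 and S15 together, 8 were higher and 2 lower. WT 12M also serves as one side of the wild-type age comparison below, so the results of both rest partly on the same 4 libraries.

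Ddit3 encodes CHOP, the stress factor linked to cell death, and lies at chr10:127290793-127296291. Its level was lowest at 35.5, median 47.0 and highest at 65.1 CPM in Het 12M, against 32.4, 7.92, 34.9 and 11.3 CPM in WT 12M. Every Het 12M library was above every WT 12M library, the closest pair being 35.5 CPM in Het 12M S9 and 34.9 CPM in WT 12M S7; 0.47% of all genes were apart in that direction. edgeR gave a log2 difference of 1.21 ± 0.43 (edgeR adjusted p = 0.442). The annotated spans of Mbd6 and Mars1, from gene start to gene end, overlap that of Ddit3 by 77 and 71 bases. Reads there cannot be assigned to a strand, and overlap of exons was not examined.

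Trib3, a pseudokinase that CHOP and ATF4 induce and that damps them in turn, was lowest at 9.88, median 31.2 and highest at 60.5 CPM in Het 12M, against 13.3, 3.51, 17.5 and 2.42 CPM in WT 12M. Het 12M S15 lay inside the WT 12M range and the other 5 Het 12M libraries lay above it. The fitted log2 difference was 1.85 ± 0.639 (edgeR adjusted p = 0.425). Ppp1r15a (GADD34), which brings phosphatase to eIF2alpha and so restores translation, was lowest at 52.7, median 70.1 and highest at 151 CPM in Het 12M, against 31.4, 57.3, 43.3 and 36.1 CPM in WT 12M. WT 12M S6 alone reached into the Het 12M range. The log2 difference of Ppp1r15a was 1.12 ± 0.367 (edgeR adjusted p = 0.395), and the annotated span of Tulp2 overlaps that of the gene by 730 bases.

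Chac1, a glutathione-degrading enzyme induced through ATF4, was lowest at 6.54, median 19.9 and highest at 35.3 CPM in Het 12M, against 9.70, 5.81, 17.5 and 5.75 CPM in WT 12M. The groups overlapped through Het 12M S15 and WT 12M S7, and the log2 difference was 1.11 ± 0.507 (edgeR adjusted p = 0.589). Atf4 itself was lowest at 95.4, median 117 and highest at 157 CPM in Het 12M, against 79.5, 108, 106 and 71.0 CPM in WT 12M. Its log2 difference of 0.45 ± 0.245 was smaller than that of the other 5 stress factors (edgeR adjusted p = 0.648); ATF4 is controlled mostly by translation, which counts do not show. Atf3 had the highest fitted difference, 2.00 ± 0.993, but it was 82.7 CPM in Het 12M S9, the library with the macrophage markers, and 0.589 to 19.6 CPM in the other Het 12M libraries. Without S9 the difference was 0.75.

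**Figure D2:**
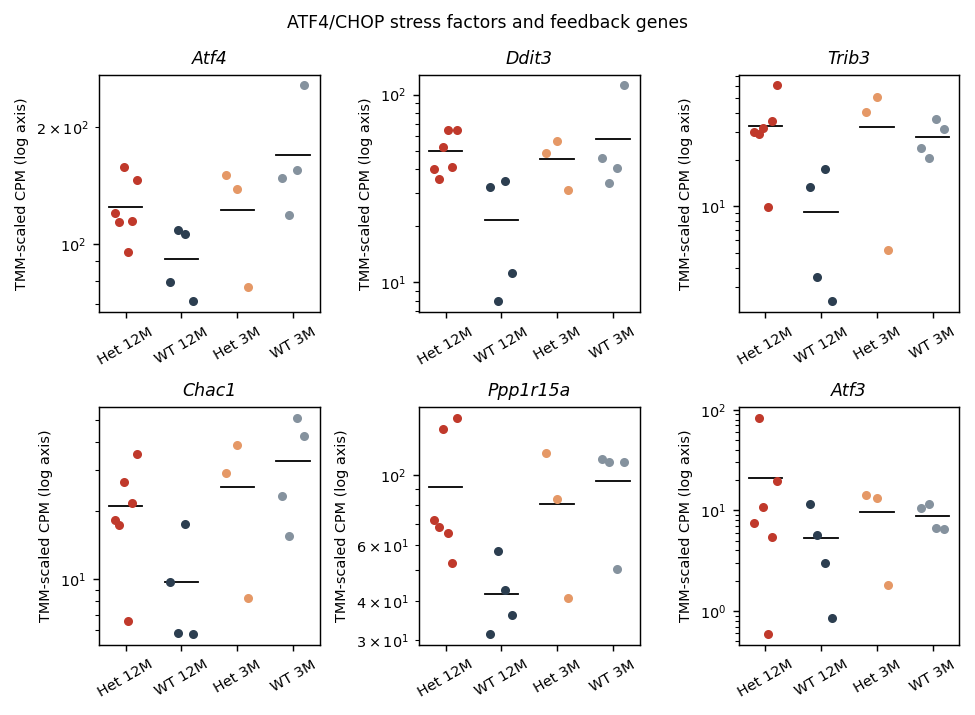
TMM-scaled CPM (log axis) of 6 ATF4/CHOP stress factors and feedback genes in each library, by group, with a line at the group mean. Ddit3 is 35.5 to 65.1 CPM in Het 12M and 7.92 to 34.9 CPM in WT 12M, and Het 3M S14 is the lowest Het 3M point in all 6 panels.

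The 5 amino acid and one-carbon genes were fitted higher in Het 12M, with a median of 0.66 and a range of 0.080 (Shmt2, which makes mitochondrial one-carbon units from serine) to 1.29 (Phgdh, the first enzyme of serine synthesis). Phgdh was lowest at 13.6, median 27.9 and highest at 156 CPM in Het 12M, against 8.10, 32.7, 11.9 and 22.3 CPM in WT 12M. Het 12M S15 alone held the 156 CPM, the next library being 36.5 CPM, and the log2 difference of 1.29 ± 0.639 (edgeR adjusted p = 0.622) was 0.35 without it. Asns averaged 132 ± 46.2 CPM in Het 12M and 83.4 ± 28.5 CPM in WT 12M (SD), a log2 difference of 0.66 ± 0.354 (edgeR adjusted p = 0.643). Mthfd2, a mitochondrial folate enzyme, had 0.69 ± 0.365 and Psat1, the next serine enzyme, 0.32 ± 0.347.

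Of the 3 sensors and Xbp1, none was past an unadjusted p of 0.05, and their log2 differences ranged from -0.23 (Ern1) to 0.11 (Atf6). Xbp1 was lowest at 111, median 157 and highest at 172 CPM in Het 12M, against 153, 126, 138 and 134 CPM in WT 12M, so the WT 12M libraries lay inside the Het 12M range. edgeR gave a log2 difference of 0.10 ± 0.164 (edgeR adjusted p = 0.883).

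Hspa5 (BiP), the ER Hsp70 that binds unfolded chains and holds the sensors inactive, was lowest at 1137, median 1433 and highest at 2025 CPM in Het 12M, against 1090, 720, 1111 and 1261 CPM in WT 12M. Het 12M S16 lay below WT 12M S13 and the other 5 Het 12M libraries lay above all of WT 12M. The fitted log2 difference was 0.53 ± 0.225 (edgeR adjusted p = 0.571), and the annotated span of Rabepk overlaps that of Hspa5 by 1921 bases. The other chaperones and folding enzymes had 10 genes fitted higher and 4 lower, none past an unadjusted p of 0.05 apart from Fkbp11.

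Of the members fitted lower in Het 12M, Fkbp11 had the smallest p. It encodes a membrane-anchored peptidyl-prolyl isomerase of the secretory pathway and lies at chr15:98724368-98728198, with no overlapping gene. Its level was lowest at 24.5, median 36.6 and highest at 58.0 CPM in Het 12M, against 59.9, 59.5, 82.4 and 84.7 CPM in WT 12M. The groups did not overlap, Het 12M being the lower, as in 0.853% of all genes, and the gap between Het 12M S15 and WT 12M S6 was the narrowest. Its log2 difference was -0.91 ± 0.211 (unadjusted p = 0.000509, rank 36 of 14897 genes, edgeR adjusted p = 0.182). DESeq2 called it at an adjusted p of 0.0307 and voom with quality weights at 0.0228. The sole degradation gene fitted lower was Derl3, at 0.352 ± 0.250 CPM in Het 12M and 0.710 ± 0.155 CPM in WT 12M (SD).

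**Figure D3:**
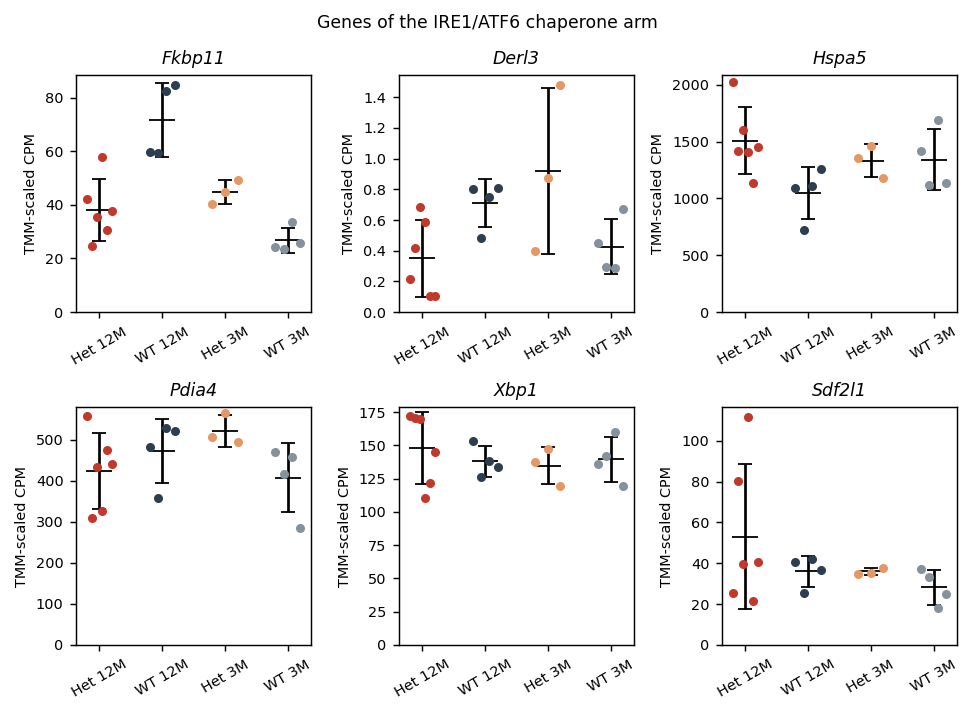
TMM-scaled CPM of 6 genes of the IRE1/ATF6 chaperone arm in each library, by group, with mean and SD as bars. Fkbp11 is 24.5 to 58.0 CPM in Het 12M and 59.5 to 84.7 CPM in WT 12M, but 40.3 to 49.1 CPM in Het 3M and 23.5 to 33.5 CPM in WT 3M.

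The wild-type age comparison asks how cultures from 12-month mice differ from those of 3-month mice. All 11 ATF4/CHOP genes were fitted lower in WT 12M than in WT 3M, with a median log2 difference of -0.75 beside 0.044 for all genes, while 53.8% of all genes were fitted higher and 46.2% lower. The chaperone arm had 8 genes fitted higher and 16 lower, with a median of -0.21, and -0.046 without WT 3M S5. No gene was called by edgeR (0%). At an unadjusted p under 0.05, 5 members were lower (3.55% of all genes) and 1 was higher (4.67% of all genes), and the 5 became 3 without WT 3M S12 and 8 without WT 12M S6 and the Het 12M libraries S9 and S15. Of all 14897 genes, DESeq2 called 53, 1 of them a member, Fkbp11. Voom with quality weights called 1510, 6 of them members.

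Fkbp11 had the smallest unadjusted p of all 14897 genes in that comparison. It was 59.9, 59.5, 82.4 and 84.7 CPM in WT 12M, against 24.4, 23.5, 33.5 and 25.8 CPM in WT 3M. Every WT 12M library was above every WT 3M library, as in 4.03% of all genes. edgeR gave a log2 difference of 1.42 ± 0.238 (unadjusted p = 1.84e-05, edgeR adjusted p = 0.274); DESeq2 gave an adjusted p of 0.000404, and edgeR without WT 12M S6 and the Het 12M libraries S9 and S15 gave 0.0101.

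Atf4 was 79.5, 108, 106 and 71.0 CPM in WT 12M, against 148, 119, 155 and 256 CPM in WT 3M. The groups did not overlap, WT 12M being the lower, as in 4.07% of all genes. The fitted log2 difference was -0.90 ± 0.268 (edgeR adjusted p = 0.552). Chac1 was 9.70, 5.81, 17.5 and 5.75 CPM in WT 12M, against 23.2, 15.5, 50.8 and 42.4 CPM in WT 3M, and WT 12M S7 reached into the WT 3M range. Its log2 difference was -1.77 ± 0.551 (edgeR adjusted p = 0.552).

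Ddit3 was 32.4, 7.92, 34.9 and 11.3 CPM in WT 12M, against 46.0, 33.9, 40.8 and 112 CPM in WT 3M. WT 3M S12 held the 112 CPM; the log2 difference of -1.43 ± 0.461 (edgeR adjusted p = 0.552) was -0.90 without it. Trib3 was 13.3, 3.51, 17.5 and 2.42 CPM in WT 12M, against 23.7, 20.5, 36.9 and 31.8 CPM in WT 3M. For Trib3 the groups did not overlap, WT 12M being the lower, as in 4.07% of all genes. Its log2 difference was -1.62 ± 0.67 (edgeR adjusted p = 0.59). Ppp1r15a had -1.19 ± 0.392 (edgeR adjusted p = 0.552).

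The amino acid genes ranged from -0.67 (Mthfd2) to -0.13 (Phgdh), and the sensors and Xbp1 from -0.46 (Ern1) to -0.017 (Xbp1). Hspa5 averaged 1046 ± 230 CPM in WT 12M and 1342 ± 271 CPM in WT 3M (SD, n = 4 each), a log2 difference of -0.36 ± 0.243 (edgeR adjusted p = 0.675). Dnajb9, an IRE1-linked BiP cochaperone, had -0.66 ± 0.318, and -0.295 without WT 3M S5, in which it was 140 CPM.

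**Figure D4:**
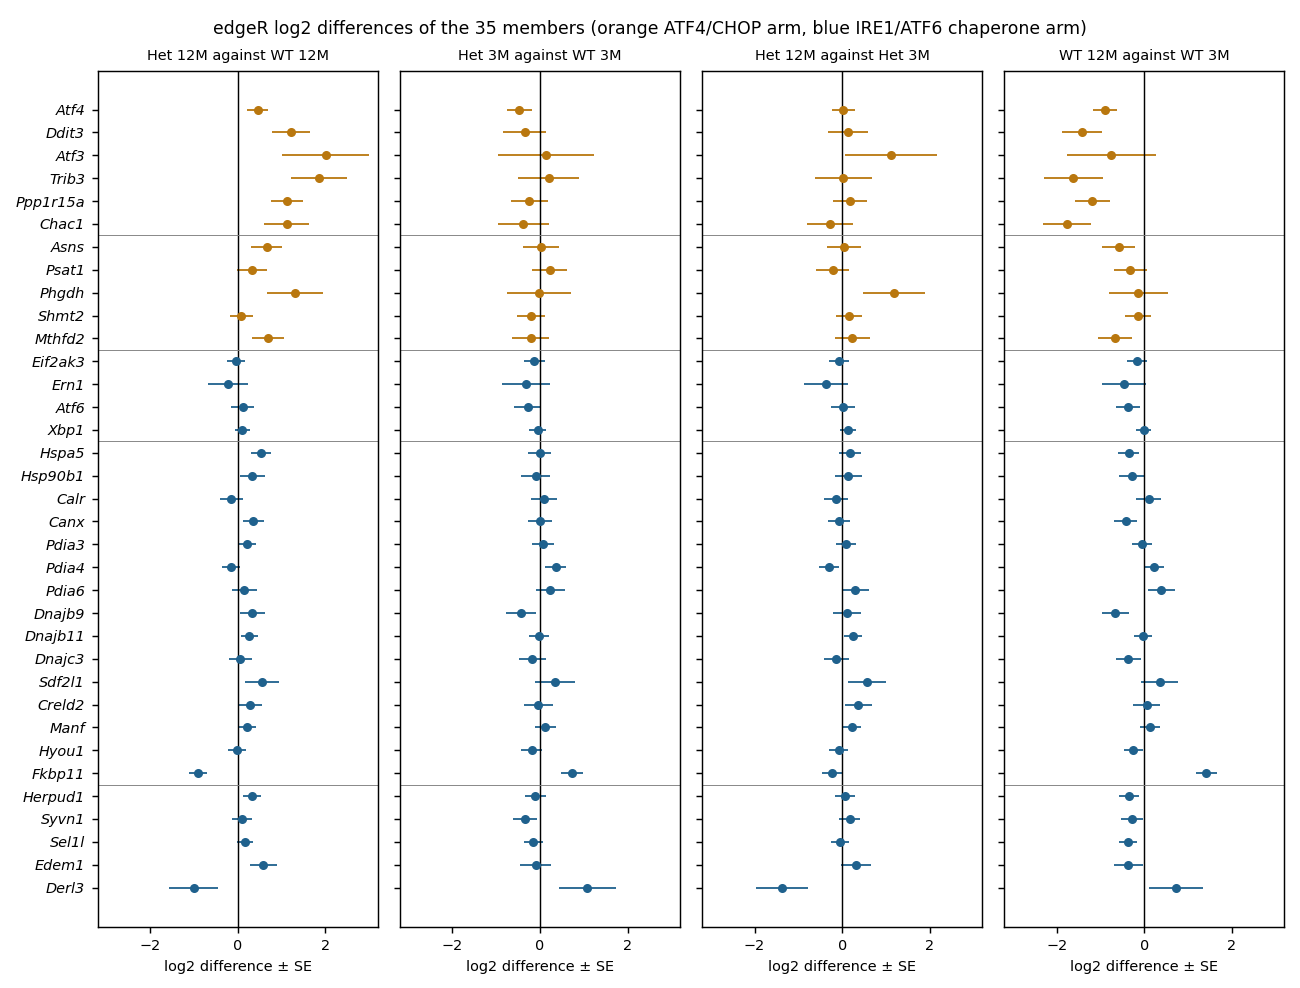
edgeR log2 differences with SE bars for each of the 35 genes in the 4 group comparisons; orange marks the ATF4/CHOP arm and blue the IRE1/ATF6 chaperone arm. The orange points lie right of 0 for Het 12M against WT 12M, with a median of 1.11. For WT 12M against WT 3M they lie left of 0, with a median of -0.75. Fkbp11 and Derl3, and by less Calr and Pdia4, lie on the other side in both.

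The same genotypes were compared at 3 months. The ATF4/CHOP arm had 4 genes fitted higher and 7 lower in Het 3M than in WT 3M, with a median of -0.21 beside -0.018 for all genes (47.5% of all genes were fitted higher and 52.5% lower), and without Het 3M S14 the median was 0.20. The chaperone arm had 9 higher and 15 lower, with a median of -0.046, and 0.078 without WT 3M S5. In edgeR no member was called (0% of all genes), and 1 was past an unadjusted p of 0.05 (0.812% of all genes were higher at that p and 0.792% lower). Fkbp11 was that gene, at 40.3, 44.8 and 49.1 CPM in Het 3M, against 24.4, 23.5, 33.5 and 25.8 CPM in WT 3M. Every Het 3M library was above every WT 3M library, as in 3.21% of all genes, and the log2 difference was 0.74 ± 0.251 (unadjusted p = 0.00924, edgeR adjusted p = 1). DESeq2 also gave an adjusted p of 1, and voom with quality weights called Fkbp11 at 0.000704. Voom called 1290 genes in this comparison and had 3594 at an unadjusted p under 0.05, beside 239 in edgeR.

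Pdia4, a disulphide isomerase, was 506, 565 and 494 CPM in Het 3M, against 470, 417, 458 and 285 CPM in WT 3M. The groups did not overlap, Het 3M being the higher, as in 3.21% of all genes. Pdia4 had a log2 difference of 0.36 ± 0.244 (edgeR adjusted p = 1). Syvn1, the ubiquitin ligase of ER-associated degradation, did not overlap either, at 47.6, 33.5 and 46.4 CPM in Het 3M, against 54.5, 53.8, 47.6 and 59.4 CPM in WT 3M, as in 3.57% of all genes; its lowest WT 3M and highest Het 3M values were both near 47.6 CPM. Derl3 was 0.398, 0.877 and 1.48 CPM in Het 3M, against 0.451, 0.296, 0.289 and 0.672 CPM in WT 3M; Het 3M S14 held the highest value, and the log2 difference of 1.08 ± 0.657 (edgeR adjusted p = 1) was 0.56 without it. Atf4 was 150, 138 and 77.4 CPM in Het 3M, against 148, 119, 155 and 256 CPM in WT 3M, with a log2 difference of -0.48 ± 0.29 (edgeR adjusted p = 1), and -0.20 without WT 3M S12. Ddit3 was 48.8, 56.7 and 31.2 CPM in Het 3M, against 46.0, 33.9, 40.8 and 112 CPM in WT 3M. The direction of its difference, -0.35 ± 0.491, turned to 0.19 without WT 3M S12. Hspa5 and Xbp1 had log2 differences of -0.0095 ± 0.262 and -0.052 ± 0.194, both with an edgeR adjusted p of 1.

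Between Het 12M and Het 3M no member was called by edgeR (0% of all genes), DESeq2 or voom with quality weights. The ATF4/CHOP arm had 9 genes fitted higher and 2 lower in Het 12M, with a median of 0.13 beside 0.074 for all genes (57.7% of all genes were fitted higher and 42.3% lower), and -0.19 without Het 3M S14. The chaperone arm had 14 higher and 10 lower, with a median of 0.075, and -0.039 without Het 12M S1. Derl3 was lowest at 0.102, median 0.316 and highest at 0.686 CPM in Het 12M, against 0.398, 0.877 and 1.48 CPM in Het 3M, with a log2 difference of -1.37 ± 0.601 (unadjusted p = 0.0357, edgeR adjusted p = 0.946). At an unadjusted p under 0.05, 0 members were higher (1.56% of all genes) and 1, Derl3, was lower (1.72%), which became 0 without any one of the Het 12M libraries S1, S16 and S17 or the Het 3M libraries S10 and S14. Without Het 3M S14 the Derl3 difference was -0.86; the gene had 2 to 26 counts per library. No member's groups were apart, as those of 0.49% (higher) and 1.42% (lower) of all genes were. Phgdh had 1.18 ± 0.708, and 0.24 without Het 12M S15. Pdia4 was lowest at 310, median 437 and highest at 559 CPM in Het 12M, against 506, 565 and 494 CPM in Het 3M, with -0.30 ± 0.225. Sdf2l1, part of an ER chaperone complex, was lowest at 21.4, median 40.0 and highest at 112 CPM in Het 12M, against 34.9, 35.2 and 37.8 CPM in Het 3M, with 0.56 ± 0.431 (edgeR adjusted p = 0.946 for all 3), and -0.19 without WT 12M S6 and the Het 12M libraries S9 and S15. Fkbp11 had -0.23 ± 0.232 in that comparison, and Atf4 and Ddit3 had 0.028 ± 0.266 and 0.13 ± 0.454, which were -0.22 and -0.079 without Het 3M S14.

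Whether the genotype difference differed between ages was tested as an interaction, the difference at 12 months minus that at 3 months. In edgeR no member was called (0% of all genes). All 11 ATF4/CHOP genes were fitted above 0, with a median of 1.32 beside 0.082 for all genes, of which 56.3% were above 0 and 43.7% below, and the chaperone arm had 19 above and 5 below, with a median of 0.22. Past an unadjusted p of 0.05 were 3 members above 0 (2.5% of all genes) and 2 below (3.26%). Without Het 3M S14 these were 0 above and 1 below. The 3 above became 1 without WT 12M S2, WT 12M S13 or WT 3M S12, and 5 without Het 12M S15 or WT 12M S7. The 3 above were Ppp1r15a at 1.37 ± 0.557, Atf4 at 0.93 ± 0.38 and Ddit3 at 1.56 ± 0.653 (edgeR adjusted p = 0.773, 0.775 and 0.791); without WT 3M S12 that of Ddit3 was 1.01. Fkbp11 had the second smallest p of all genes, with an interaction of -1.65 ± 0.328 (unadjusted p = 0.000115, edgeR adjusted p = 0.498). DESeq2 called it at an adjusted p of 0.0164, as 1 of 35 genes called. Voom with quality weights called 939 genes, Fkbp11 and Ppp1r15a among them. Derl3 had -2.09 ± 0.865 (edgeR adjusted p = 0.781). Ordered by mean level, Fkbp11 was 71.6 ± 13.8 CPM in WT 12M, 44.8 ± 4.42 CPM in Het 3M, 38.1 ± 11.5 CPM in Het 12M and 26.8 ± 4.59 CPM in WT 3M (SD); the Het 3M range lay inside that of Het 12M, and the Het 12M and WT 3M ranges overlapped.

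Other genes of the same pathways were read from lists that exclude the 35. These lists were also chosen with earlier results of these data known, and their values come from the same libraries. Of 29 further ATF4-side genes tested, 26 were fitted higher in Het 12M than in WT 12M (55.7% of all genes), with a median log2 difference of 0.47. At an unadjusted p under 0.05, 10 were higher (3.44% of all genes) and 0 lower (4.93%). Cth, which makes cysteine, had 1.15 ± 0.38, Cebpg, a C/EBP partner of ATF4, 0.47 ± 0.162, Psph, the last enzyme of serine synthesis, 0.73 ± 0.262, and Vldlr, a lipoprotein receptor, 1.14 ± 0.412. In WT 12M against WT 3M, 26 of the 29 were fitted lower (46.2% of all genes), with a median of -0.34. Past an unadjusted p of 0.05 were 7, all lower (3.55% of all genes). They were led by Vldlr at -1.82 ± 0.448, Slc7a11, the cystine transporter, at -1.47 ± 0.499, Atf5 at -1.39 ± 0.476 and Ppp1r15b at -0.50 ± 0.19. None of the 29 was past that p at 3 months, and Cebpg alone was between Het 12M and Het 3M (0.38 ± 0.178). All adjusted p in edgeR were 0.406 or higher.

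Of 26 further ER-side genes, 15 were fitted higher and 11 lower in Het 12M than in WT 12M (55.7% and 44.3% of all genes), with a median of 0.13. In WT 12M against WT 3M, 13 were higher and 13 lower (53.8% and 46.2% of all genes). Ero1l (Ero1a), the hypoxia-inducible oxidase that recharges disulphide isomerases, was past an unadjusted p of 0.05 in both comparisons. It averaged 66.2 ± 28.5 CPM in Het 12M, 28.9 ± 3.27 CPM in WT 12M, 70.5 ± 27.0 CPM in Het 3M and 104 ± 44.9 CPM in WT 3M (SD). Its log2 difference was 1.20 ± 0.35 for Het 12M against WT 12M (edgeR adjusted p = 0.299) and -1.84 ± 0.38 for WT 12M against WT 3M (edgeR adjusted p = 0.378). Of 11 cytosolic heat shock genes, Hspa1b and Hspa1a were higher (0.98 ± 0.342 and 0.94 ± 0.34) and Hspb8 lower (-0.89 ± 0.298) at an unadjusted p under 0.05 in Het 12M against WT 12M. Hspa1b was lower (-1.27 ± 0.369) in WT 12M against WT 3M. Of 6 mitochondrial chaperones and proteases, Hspa9 (-0.85 ± 0.306) and Trap1 (0.38 ± 0.155) were past that p in WT 12M against WT 3M, and none was in Het 12M against WT 12M. No gene of these lists passed after adjustment.

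The summed level of 10 hypoxia markers also differed between libraries. It was lowest at 1130 and highest at 1898 CPM in Het 12M, and 1081, 802, 1074 and 1020 CPM in WT 12M, so the groups did not overlap. It was 2026, 2234 and 908 CPM in Het 3M, against 1878, 1490, 1547 and 2028 CPM in WT 3M. Het 3M S14, with 908 CPM, also had the lowest mean log2 CPM of the ATF4/CHOP arm, 4.28, beside 5.88 and 5.997 in the other Het 3M libraries. S14 was labelled female and the other Het 3M libraries male. In Het 3M S14 none of the 11 genes was above its mean over all libraries. WT 12M S6 had the lowest hypoxia sum of all libraries, 802 CPM. Its arm mean of 4.86, with that of S7, was at the upper end of WT 12M and below the lowest of Het 12M, 4.99. In S6 the mean was 3.76 for the stress factors and 6.19 for the amino acid genes. The association was not tested. Over the groups, the arm's mean log2 CPM was 5.59 ± 0.43 in Het 12M, 4.67 ± 0.241 in WT 12M, 5.39 ± 0.958 in Het 3M and 5.65 ± 0.224 in WT 3M (SD). The part of hypoxia in the group differences was not tested either. With Y-linked expression as a term in the fit, all 11 genes of the arm were fitted higher in Het 12M than in WT 12M. They were fitted lower in WT 12M than in WT 3M. Het 12M S17, labelled male, had the highest arm mean, 6.21. It was 4.86 in WT 12M S6 and S7, which had Y-linked expression, and 4.62 and 4.36 in S2 and S13. In WT 3M it was 5.62 and 5.90 in S5 and S12, labelled male, and 5.71 and 5.36 in S3 and S4, labelled female. The labels spread sex unevenly over the groups, and its part was not tested. Markers of B and plasma cells, in which Fkbp11, Derl3 and Xbp1 are high, summed to 45.0 to 176 CPM in Het 12M, 117 to 263 CPM in WT 12M, 107 to 198 CPM in Het 3M and 84.3 to 198 CPM in WT 3M, and 1 to 7 of the 9 markers were at 0 in a library. Sdc1, which stromal cells also express, gave 44.4 to 261 CPM of these sums, and Mzb1, Jchain and Cd79a were at most 0.0995, 0.44 and 0.458 CPM in any library.

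**Figure D5:**
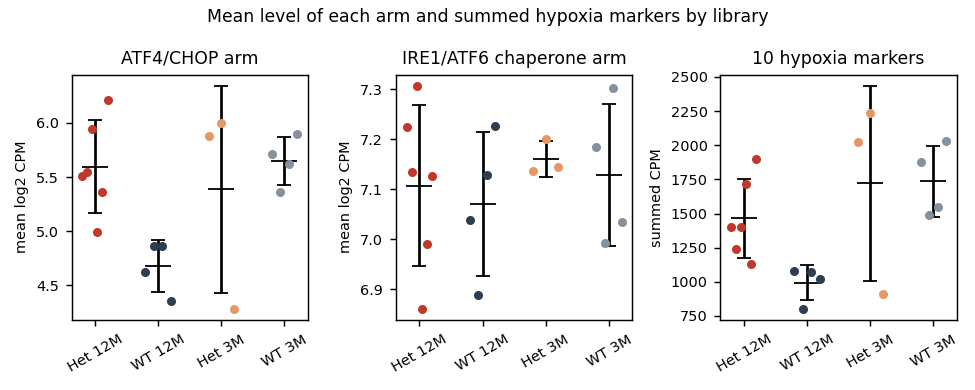
Mean log2 CPM of each arm and summed CPM of 10 hypoxia markers in each library, by group, with mean and SD. The ATF4/CHOP arm is 4.99 to 6.21 in Het 12M and 4.36 to 4.86 in WT 12M, hypoxia markers are 1130 to 1898 CPM in Het 12M and 802 to 1081 CPM in WT 12M, and the chaperone arm overlaps between all groups.

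Het 12M S15 gave the most extreme values of any library: of the 35 members, 6 were highest and 11 lowest in it. Highest were Phgdh, Pdia6, Dnajb11, Sdf2l1, Creld2 and Manf, the last 5 of them ER chaperones, folding enzymes or ER-resident stress proteins. Lowest were Atf3, the sensors Eif2ak3, Ern1 and Atf6, Xbp1, Calr, Canx, Dnajc3, Hyou1, Sel1l and Edem1. The median exonic length was 2861 bases for the 6 and 6026 bases for the 11, beside 3139 for all 35. The sum of stromal markers in S15, 6136 CPM, was the lowest of any library. The part of RNA quality or of the cells in that library was not tested.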

How the data were processed

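The authors deposited 1 table of raw counts per gene, with Entrez identifiers, for 68 columns, which are 17 samples in 4 technical replicates each; every column was mapped. Per the submitters' processing notes, Subread and featureCounts were used with mm10; versions, annotation and strand setting are not given in the sources used here. Libraries were made with TruSeq RNA v2, per the labels' protocols. Technical replicates differed little more than by sampling (chi-square per degree of freedom 1.02 to 1.06) and were summed. Between different samples it was at least 18.5, for S8 and S10 of Het 3M, and the second lowest of 136 pairs was 40.9. Why S8 and S10 were closer was not tested, and the labels do not say whether they come from separate mice. The series text gives 3 samples per group; the labels give the numbers used here.

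The 35 members and all lists were chosen with earlier results of these data known. Genes kept by filterByExpr (14897, all 35 members among them) were fitted in edgeR 4.0.16 (R 4.3.3) with TMM factors, 1 quasi-likelihood fit of 4 groups with no covariate, and 2-sided tests adjusted by Benjamini-Hochberg over all genes, threshold 0.05. Sex was left out because sex-linked transcripts (Xist, thresholds of 10 CPM and 1 CPM for Y-linked genes) do not match the label in WT 12M: 3 libraries have the pattern opposite to their label, and S7, labelled female, is above both thresholds. SE is the log2 fold change divided by the square root of F. The common biological coefficient of variation was 0.512. Ddit3, Atf4, Hspa5, Xbp1 and Ezh2 are described, with the 4 members of smallest p in each comparison. Library values are given for some of these, and group summaries or log2 differences for the rest. Het 12M is mostly given as lowest, median and highest. Other pathway genes are named where the unadjusted p was under 0.05, at most 4 a list and comparison. Atf3 and other members were named after their values were seen. Exonic length came from GENCODE vM21, and identifiers without a symbol (1904) held 0.573% of counts. DESeq2 1.42.0 and limma 3.58.1 (voom with quality weights) were alternatives, beside other scaling, filters, covariates and left-out samples. The edgeR script was tested on simulated counts.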

Additional observations from a re-analysis of the deposited data

Results flagged for a closer look

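Within Het 12M, WT 12M and WT 3M, 13 of 111 checks had 1 library far from the rest. Het 3M, with 3 libraries, was not checked. Chance flags about 1 in 20 of independent checks. These checks share the same libraries, so their number cannot be set against that rate. In Het 12M, S15 was low for Ern1 (1.24 CPM) and Eif2ak3 (24.1 CPM) and high for Phgdh (156 CPM), Pdia6 (1398 CPM) and Creld2 (165 CPM), S9 was high for Atf3 (82.7 CPM) and S1 for Hsp90b1 (2791 CPM). In WT 12M, S13 was high for Canx (935 CPM) and Dnajc3 (318 CPM). In WT 3M, S5 was low for Ppp1r15a (50.3 CPM) and high for Eif2ak3 (70.2 CPM) and Dnajb9 (140 CPM), and S12 was high for Ddit3 (112 CPM). Fkbp11 stood lower in Het than in WT libraries at 12 months and higher at 3 months, with no overlap in either comparison; the difference between the ages was -1.65 on the log2 scale (edgeR adjusted p = 0.498).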

How the results depend on the processing

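Of 5 comparisons, edgeR called 0 genes and 0 members in each; at an unadjusted p under 0.05 it had 239 genes for Het 3M against WT 3M, 1246 for Het 12M against WT 12M, 1224 for WT 12M against WT 3M, 489 for Het 12M against Het 3M and 858 for the interaction. DESeq2 called 106, 53, 1 and 35 genes in the last 4 and 1 member, Fkbp11, in each of Het 12M against WT 12M, WT 12M against WT 3M and the interaction. Voom with quality weights called 1290, 171, 1510, 1 and 939 genes in the order above, and 1, 1, 6, 0 and 2 members; each 1 was Fkbp11, the 6 were Atf4, Canx, Fkbp11, Hyou1, Ppp1r15a and Psat1, and the 2 Fkbp11 and Ppp1r15a. Without WT 12M S6 and the Het 12M libraries S9 and S15, edgeR called 2 genes in WT 12M against WT 3M, 1 of them a member, Fkbp11. Leaving out 1 library gave 0 to 2 genes in Het 12M against WT 12M, and a chaperone arm median of -0.24 to -0.046 in WT 12M against WT 3M. The causes were not tested. All 11 ATF4/CHOP genes stayed higher in Het 12M than in WT 12M, and lower in WT 12M than in WT 3M, under the scalings, filters and covariates tried. With 1 library left out, 10 of the 11 did so in Het 12M against WT 12M without Het 12M S17 or WT 12M S2. In WT 12M against WT 3M 9 did without WT 12M S2 and 10 without WT 12M S7 or WT 3M S3. The other comparisons moved with a sex term, whether labelled sex or Y-linked expression. Het 3M against WT 3M had 2 of the 11 higher and 9 lower, beside 4 and 7 without the term. Het 12M against Het 3M had all 11 higher, beside 9. The interaction had 6 members above 0 at an unadjusted p under 0.05, beside 3.

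Some fitted values turned sign. For Het 3M against WT 3M these were, with voom, Ddit3 (0.071), Hspa5 (0.034) and Xbp1 (0.021), Hspa5 with library totals (0.014) and without the 3 libraries (0.0020). For WT 12M against WT 3M, Xbp1 was 0.060 with voom, 0.015 with library totals and 0.0235 without the 3 libraries. For Het 12M against Het 3M, Atf4 was -0.071 with voom and Sdf2l1 -0.19 without the 3 libraries. Leaving out 1 library gave ranges of -0.22 to 0.20 (Atf4) and -0.079 to 0.32 (Ddit3) for Het 12M against Het 3M, and -0.54 to 0.19 (Ddit3), -0.095 to 0.125 (Hspa5) and -0.13 to 0.025 (Xbp1) for Het 3M against WT 3M, and -0.085 to 0.053 (Xbp1) for WT 12M against WT 3M. No paired analysis was possible because the numbers shared between groups mark technical replicates of 1 sample. Depth limits Derl3 (2 to 26 counts per library) most, and Atf3 and Ern1 in Het 12M S15 (9 and 19 counts).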
